A study of Mus musculus with 6 samples.

Results

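The genes described here are 8 transcription factors that set and hold hepatocyte identity: Hnf4a, Foxa1, Foxa2, Foxa3, Cebpa, Cebpb, Prox1 and Nr5a2. They were chosen by name from the 55802 gene symbols of the deposited counts, and all 8 passed the filter on low counts that left 17662 genes for testing. The data are liver transcriptomes of male C57BL/6 mice reared for 71 weeks, with 3 libraries from mice on chow that contained PS-MP (polystyrene microplastic particles) and 3 from mice on normal chow, called control. The series asks what prolonged PS-MP exposure does to gene expression in the liver. The treatment protocol of every library, control included, names the PS-MP chow, so the groups follow the title and the treatment label. The sources used here state neither particle size nor dose, and the labels do not say that replicates are separate animals. P-values therefore measure the spread between these samples, which may be technical.

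PS-MP libraries held 79081889 to 79691824 counts and control libraries 68357478 to 112566641. Counts of the 8 genes together came to 73264, 81106 and 78980 in PS-MP replicates 1, 2 and 3, against 70005, 51117 and 98922 in control replicates 1, 2 and 3. Reads of 18S ribosomal RNA (Rn18s-rs5) took 0.387% to 1.14% of the counts in PS-MP and 1.15% to 11.2% in control, with the highest share in control replicate 2. The 18 hepatocyte markers on a list, such as Alb, Tat and Serpinc1, summed to 103610 to 131245 CPM (counts scaled to library size) in PS-MP and 93066 to 118296 CPM in control, and none was at 0 in all libraries.

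Hepatocytes keep their identity through a small set of factors that bind together at liver enhancers and control each other's genes. HNF4A is a nuclear receptor that drives much of the hepatocyte programme, including apolipoprotein and clotting factor genes. The FOXA proteins open compact chromatin ahead of other factors. CEBPA favours metabolic genes and the resting state, while CEBPB responds to inflammation and regeneration. PROX1, a homeobox protein also known for its role in lymphatic vessels, acts in liver as a corepressor of nuclear receptors, and NR5A2 (LRH-1) controls bile acid and cholesterol genes.

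Because these factors are known to act on each other's genes, the 250 bases before each RefSeq start of the 8 genes were searched on both strands for their binding motifs. The motifs were TGTTTAC and TGTTTGC for FOXA, CAAAGTCCA and the direct repeat DR1 for HNF4, TTGCNNAA (which holds TTGCGCAA) for CEBP, and CAAGGNCA (which holds CAAGGTCA) for NR5A. All 8 genes had a RefSeq entry (GRCm38.p6, an earlier build than the GRCm39 named for the counts), with 13 start windows in all. A motif was found in 3 of these windows, which belong to 3 of the genes. The share of all windows with any of these motifs was not counted, so this number has no background of its own. The 30 bases around each match are given because they show which of the genes carry the letters of a motif of the set. Capitals mark the match, and each sequence is read 5′ to 3′ on the strand of its gene.
Foxa1, chr12:57546235-57546264, minus strand: ttatactgctttGTAAACAaagtgagggcc
Prox1, chr1:190169618-190169647, minus strand: ctatttgcttgcTGTTTGCatacctttcac
Nr5a2, chr1:136953851-136953880, minus strand: tgttttgTTTTGCAAagcttggtctacaag
The FOXA motif lay in a window of Foxa1 (TGTTTAC, on the opposite strand) and of Prox1 (TGTTTGC). For Foxa1 that is the motif of its own family. A CEBP motif (TTGCNNAA, on the opposite strand) lay in a window of Nr5a2. These windows of Foxa1 and Prox1 overlap an annotated exon in GENCODE M21, while that of Nr5a2 does not. Among all 32851 windows of the same length in the table, TGTTTAC was found in 3.17%, TGTTTGC in 4.3% and TTGCNNAA in 9.56%. The HNF4 motifs CAAAGTCCA (0.384% of all windows) and DR1 (0.0152%), TTGCGCAA (0.164%), CAAGGTCA (1.33%) and CAAGGNCA (5.53%) were not among the letters of the 13 windows. A match is a description of the letters and not a binding site.

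No member passed the test between the diets. The 95% intervals lay between 0.757-fold and 1.28-fold for Hnf4a, Foxa3 and Cebpa and were wider for the other members. The diets were compared with edgeR's quasi-likelihood test on counts with TMM scaling (a trimmed mean of log ratios between libraries), with Benjamini-Hochberg adjustment over all 17662 genes. It called 0 of the 8 genes, where 0.0113% of all genes tested were called, and 0 of the 8 had an unadjusted p under 0.05, where 5.38% of all genes did (2.8% higher and 2.58% lower in PS-MP). DESeq2 and limma-voom also called 0 of the 8, where DESeq2 called 187 and limma-voom 1 of the 17662 genes. With DESeq2 the interval of Foxa1 lay above zero (0.16 to 2.85, DESeq2 adjusted p = 0.648). Log2 fold changes (PS-MP minus control) were above zero for 4 members and below zero for 4, with a median of -0.00, beside a median of 0.02 over all genes tested and 52.8% of all genes above zero. The libraries of the diets overlapped for every one of the 8 genes, while they did not overlap for 11.2% of all genes tested. In bulk tissue, fewer cells of a type and less RNA per cell cannot be told apart.

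**Figure D1:**
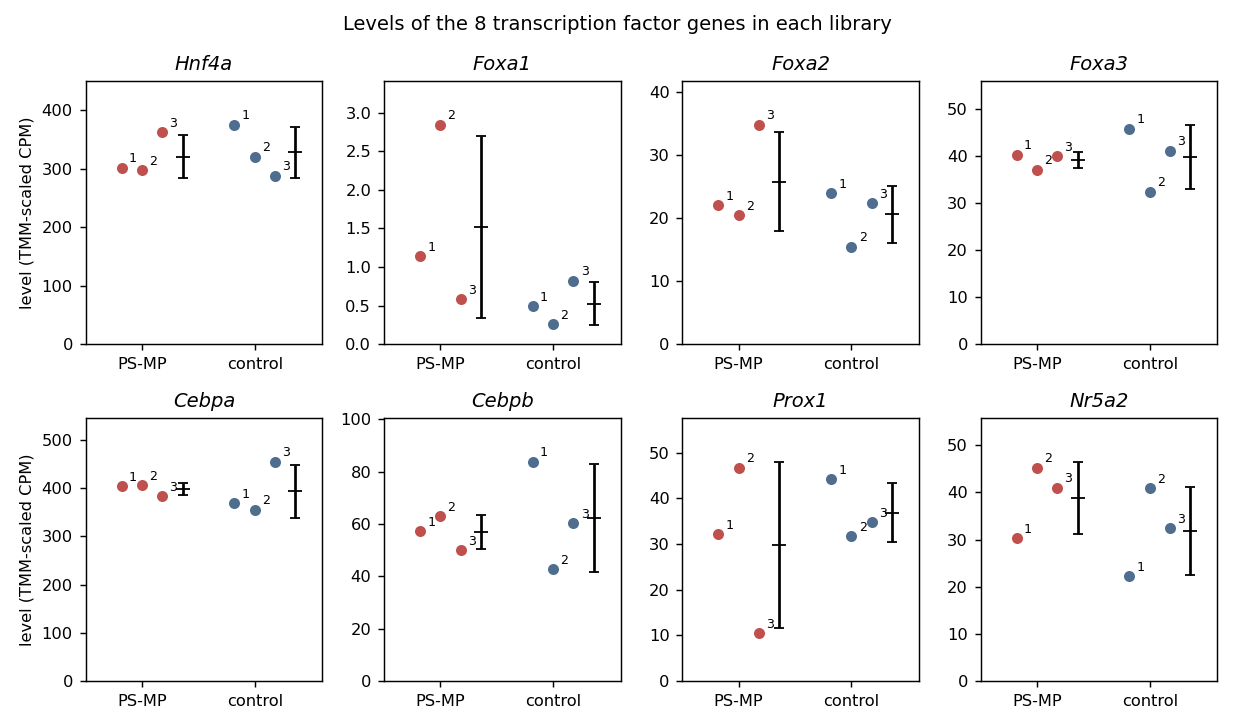
Level of each gene in TMM-scaled CPM (vertical axis, from 0, its own scale for each gene) in PS-MP and control libraries. Points are libraries with their replicate number, and bars beside them give the mean and SD of 3 libraries. The diets overlap for every gene, Foxa1 is highest in PS-MP replicate 2 (2.84 CPM) and Prox1 lowest in PS-MP replicate 3 (10.5 CPM).

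Hnf4a was close to even between the diets. It had 302, 297 and 363 CPM in PS-MP replicates 1, 2 and 3, against 375, 320.4 and 288 CPM in control replicates 1, 2 and 3. The highest and the lowest library were both control. The log2 fold change was -0.03 (SE 0.15, 95% interval -0.40 to 0.34, edgeR adjusted p = 0.9998), or 0.757-fold to 1.26-fold. Hnf4aos, a noncoding gene on the opposite strand that overlaps Hnf4a without sharing exons in GENCODE M21, had 110, 105 and 124 counts in PS-MP and 124, 88 and 232 counts in control. That is 0.399 to 0.443 counts per 100 Hnf4a counts in PS-MP and 0.451 to 0.761 in control. These ranges do not overlap (exact two-sided permutation p = 0.1, the smallest that 3 against 3 libraries can give), but the log2 fold change of Hnf4aos itself, -0.43 (SE 0.25), did not pass (edgeR adjusted p = 0.955).

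The 3 FOXA genes behaved differently from one another in spread. Foxa3, which is prominent in the adult liver, had 40.4, 37.2 and 40.0 CPM in PS-MP replicates 1, 2 and 3, against 45.9, 32.5 and 41.2 CPM in control replicates 1, 2 and 3. PS-MP libraries lay inside the control range, and the log2 fold change was -0.03 (SE 0.16, 95% interval -0.40 to 0.35). Foxa2, which is active in the fasted liver and in bile acid handling, had 22.0, 20.4 and 34.8 CPM in PS-MP, against 23.9, 15.4 and 22.3 CPM in control. PS-MP replicate 3 was the highest library and control replicate 2 the lowest. Its log2 fold change was 0.32 (SE 0.27, interval -0.31 to 0.96, edgeR adjusted p = 0.9998). Leaving out PS-MP replicate 3 took it to 0.03, and leaving out control replicate 2 to 0.15.

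Foxa1, which together with Foxa2 is needed to start liver development, was the least abundant member and had the largest difference of the 8. It had 94, 251 and 50 counts in PS-MP replicates 1, 2 and 3, or 1.14, 2.84 and 0.584 CPM. Control replicates 1, 2 and 3 had 36, 16 and 87 counts, or 0.496, 0.263 and 0.822 CPM. PS-MP replicates 1 and 2 were above every control library, while PS-MP replicate 3 lay between control replicates 1 and 3. The exact Poisson interval of PS-MP replicate 2, 2.502 to 3.22 CPM, did not touch that of any other library. Such intervals cover counting error only. The mean was 1.52 ± 1.18 CPM in PS-MP and 0.527 ± 0.281 CPM in control (SD, n = 3 each), and the log2 fold change 1.51 (SE 0.67, 95% interval -0.09 to 3.12), or 2.86-fold with an interval of 0.941 to 8.67. The unadjusted p was 0.0604 and the edgeR adjusted p 0.923. Leaving out PS-MP replicate 2 took the log2 fold change to 0.69. With control replicate 2 left out it was 1.198. The interval, which spanned zero with all 6 libraries, lay above zero when PS-MP replicate 3 was left out (1.89, interval 0.39 to 3.38) and when control replicate 3 was (1.996, interval 0.07 to 3.92). It spanned zero when any other library was left out, and the edgeR adjusted p was at least 0.645 with any library left out.

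Per kilobase of the longest coding transcript in GENCODE M21, the FOXA level consisted almost wholly of Foxa3 and Foxa2. Foxa3 held 64.9%, 63.5% and 54.3% of the FOXA level in PS-MP replicates 1, 2 and 3, against 66.4%, 68.5% and 65.3% in control replicates 1, 2 and 3. Every PS-MP library was lower in this share than any control library, with PS-MP replicate 1 just below control replicate 3 (exact two-sided permutation p = 0.1, again the smallest possible). Foxa2 held 33.4% to 45.2% in PS-MP and 31.1% to 33.8% in control, with PS-MP replicate 3 far above the other 5 libraries. Foxa1 held 0.506% to 3.10% in PS-MP and 0.354% to 0.832% in control, and the exact permutation p was 0.2 for the shares of Foxa2 and of Foxa1. The annotation also lists a coding entry of Foxa2 with 865 bases, and whether it is a complete transcript was not checked. Over that length the share of Foxa3 would be 43.4%, 42.7% and 32.7% in PS-MP and 44.8%, 47.1% and 43.7% in control. Which of the pair comes out larger thus depends on the length used. Over the longest forms, the summed FOXA level was 31.8 ± 3.87 CPM per kilobase in PS-MP and 29.4 ± 5.51 in control (SD, n = 3 each), a difference smaller than either SD.

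**Figure D2:**
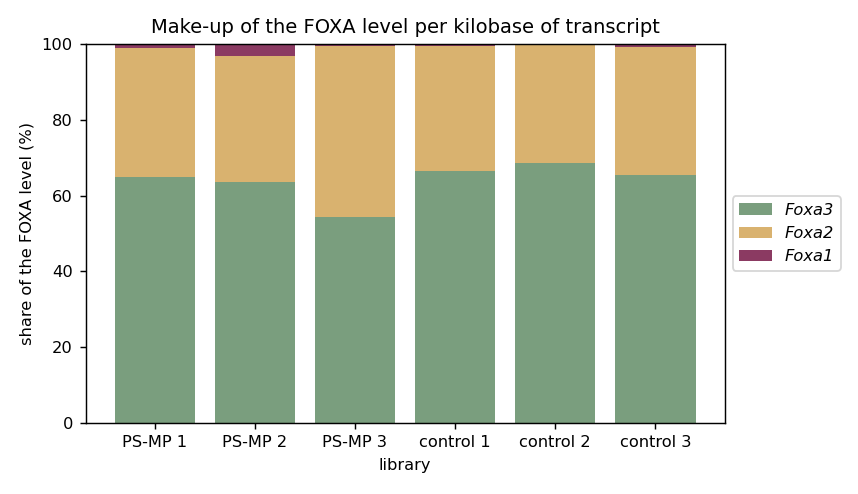
Share of Foxa3, Foxa2 and Foxa1 (stacked bars, percent) in the summed FOXA level, as CPM per kilobase of the longest coding transcript, for each library. Over these longest forms, Foxa3 makes up 54.3% to 68.5% in every library, Foxa2 peaks at 45.2% in PS-MP replicate 3, and Foxa1 reaches 3.10% in PS-MP replicate 2.

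Cebpa was the most abundant member and the steadiest. It had 405, 406 and 383 CPM in PS-MP replicates 1, 2 and 3, against 369, 356 and 455 CPM in control replicates 1, 2 and 3. The PS-MP libraries lay inside the control range, and the log2 fold change was 0.02 (SE 0.14, 95% interval -0.32 to 0.35, edgeR adjusted p = 0.9998). Its interval was the narrowest of the 8. Gm45091, an antisense gene whose exons overlap those of Cebpa, had 66 to 141 counts in PS-MP and 46 to 117 in control, against at least 32787 and 21651 counts of Cebpa. Reads from opposite strands cannot be told apart here because the strand setting of the counting is not given.

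Cebpb had 57.3, 63.0 and 50.1 CPM in PS-MP replicates 1, 2 and 3, against 83.8, 42.7 and 60.2 CPM in control replicates 1, 2 and 3. Control libraries spanned 1.96-fold and contained the whole PS-MP range, which spanned 1.26-fold. The log2 fold change was -0.13 (SE 0.25, interval -0.73 to 0.47, edgeR adjusted p = 0.9998). In GENCODE M21 the exons of Cebpb overlap those of Tmem189 on the opposite strand. That symbol was not matched in the counts, so the share of Cebpb reads that could come from it was not tested. The ratio of Cebpa to Cebpb per kilobase was 4.04, 3.69 and 4.38 in PS-MP and 2.52, 4.77 and 4.33 in control, with the PS-MP libraries inside the control range.

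Prox1 was set apart by one library. It had 32.2, 46.8 and 10.5 CPM in PS-MP replicates 1, 2 and 3 (2654, 4128 and 896 counts), against 44.2, 31.7 and 34.8 CPM in control replicates 1, 2 and 3 (3212, 1931 and 3679 counts). PS-MP replicate 3 had the lowest level and PS-MP replicate 2 the highest, a 4.47-fold span within the diet where control spanned 1.39-fold. The log2 fold change was -0.31 (SE 0.49, interval -1.48 to 0.87, edgeR adjusted p = 0.9998). It turned to 0.08 (interval -0.49 to 0.66) when PS-MP replicate 3 was left out and was -0.79 (interval -1.96 to 0.38) when PS-MP replicate 2 was.

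Prox1os, a noncoding gene that overlaps exons of Prox1 on the opposite strand, was lower by less in the library where Prox1 was low. It had 497, 417 and 291 counts in PS-MP replicates 1, 2 and 3, against 341, 194 and 458 in control replicates 1, 2 and 3. That is 18.7, 10.1 and 32.5 Prox1os counts per 100 Prox1 counts in PS-MP, against 10.6, 10.05 and 12.4 in control (exact two-sided permutation p = 0.3). Prox1 was 4.47-fold lower in PS-MP replicate 3 than in PS-MP replicate 2, while Prox1os had 3.40 CPM in PS-MP replicate 3 and 4.72 CPM in PS-MP replicate 2. The log2 fold change of Prox1os was 0.21 (SE 0.28, edgeR adjusted p = 0.9998).

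Nr5a2 had 30.3, 45.2 and 41.0 CPM in PS-MP replicates 1, 2 and 3, against 22.2, 40.9 and 32.4 CPM in control replicates 1, 2 and 3. Control replicate 1 was the lowest library and PS-MP replicate 2 the highest, and the ranges overlapped. The log2 fold change was 0.29 (SE 0.26, interval -0.33 to 0.91, edgeR adjusted p = 0.9998). With control replicate 1 left out it was 0.09.

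Per kilobase of the longest coding transcript, the order of the levels was Cebpa, Hnf4a, Cebpb, Foxa3, Foxa2, Nr5a2, Prox1 and Foxa1, with the same order of the means in PS-MP and in control. Cebpa averaged 151 ± 4.91 CPM per kilobase in PS-MP and 149.7 ± 20.6 in control (SD, n = 3 each), while Foxa1 averaged 0.477 ± 0.369 in PS-MP and 0.165 ± 0.0881 in control. The 6 libraries of Cebpa lay above all of Hnf4a, those of Hnf4a above all of Cebpb, and those of Cebpb above all of Foxa3. Foxa3 and Foxa2, Foxa2 and Nr5a2, and Nr5a2 and Prox1 overlapped in range across the 6 libraries. Within the same library, Foxa3 was above Foxa2 in 6 of 6 libraries, Foxa2 above Nr5a2 in 5 of 6 and Nr5a2 above Prox1 in 5 of 6. The places of Foxa2, Nr5a2 and Prox1 depend on the transcript length used. Which form is made was not measured, and whether the shorter annotated forms are complete was not checked. Over its longest form of 7913 bases Prox1 lay between 1.32 and 5.91 CPM per kilobase, and over a form of 3144 bases between 3.33 and 14.9. Nr5a2 averaged 8.21 CPM per kilobase in PS-MP and 6.73 in control over 4733 bases, and 20.9 in PS-MP and 17.1 in control over a form of 1859 bases. Foxa2 averaged 12.1 CPM per kilobase in PS-MP and 9.66 in control over 2128 bases. Over the entry of 865 bases it would average 29.8 in PS-MP and 23.8 in control, above Foxa3, if that entry were a complete transcript.

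The members differed in their spread within a diet. The pooled within-diet SD of log2 CPM was 0.14 for Cebpa, 0.18 for Hnf4a and 0.19 for Foxa3, and 88.6%, 81.1% and 78.7% of all genes tested had a wider spread. Cebpb, Nr5a2 and Foxa2 lay between 0.36 and 0.38, near the median of 0.34 over all genes. Prox1 had 0.81 and Foxa1 0.97, which 14.8% and 10.9% of all genes tested exceeded. Control replicate 2 was the lowest of the 6 libraries for 5 of the 8 genes (the 3 FOXA genes, Cebpa and Cebpb), but not for Hnf4a, Prox1 or Nr5a2. It was also the library with 11.2% of 18S reads. With the ribosomal RNA rows left out before scaling, the log2 fold change was 1.51 for Foxa1, 0.32 for Foxa2, -0.14 for Cebpb and -0.31 for Prox1. With them it was 1.51, 0.32, -0.13 and -0.31. TMM scaling already allows for rows that take a large share, so this run does not test the RNA quality of control replicate 2.

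**Figure D3:**
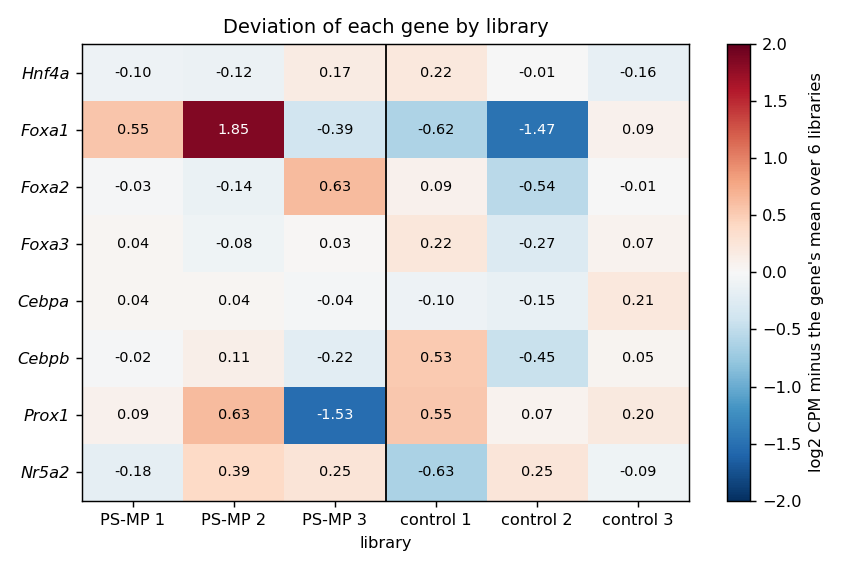
Log2 CPM of each gene (rows) in each library (columns) minus its mean over the 6 libraries, as colour and number, with a line between the PS-MP and control libraries. Cells stay near zero for Hnf4a, Foxa3 and Cebpa, and the extremes are Foxa1 in PS-MP replicate 2 (1.85) and control replicate 2 (-1.47) and Prox1 in PS-MP replicate 3 (-1.53).

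Likeness to other genes was measured as the root mean square difference of log2 CPM over the 6 libraries, each gene centred on its own mean, among 6388 genes with a mean of at least 10 CPM. Among the members, Foxa3 and Cebpa were the most alike pair (0.16), then Hnf4a and Foxa3 (0.17) and Foxa3 and Cebpb (0.19). The gene most like Cebpa was Coa8 (0.01), then Commd2 (0.03). Hnf4a was nearest to Stard3 and Cdc42bpg (0.04 each), Foxa3 to Usp5 and Atp5b (0.03 each), and Cebpb to Rab4b (0.08) and Cdc42ep4 (0.10). Nr5a2 was nearest to Srsf1 and Slc17a2 (0.10 each) and Foxa2 to Hyal2 and Atxn2 (0.15 each). These small values go with small spreads, since a gene that varies little has many near neighbours.

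Prox1 was nearest to Apol9a (0.19) and Usp18 (0.22), against an own SD of 0.72. Apol9a had 101, 158 and 42.8 CPM in PS-MP replicates 1, 2 and 3, against 129, 134 and 115 CPM in control replicates 1, 2 and 3, and shared the low PS-MP replicate 3. Foxa1 had no close neighbour by this measure: the nearest were Pcsk4 (0.38) and Rhobtb1 (0.42), against an own SD of 1.03. Rhobtb1 had 20.5, 65.2 and 11.8 CPM in PS-MP, against 17.8, 3.97 and 22.6 CPM in control, with the same highest and lowest library as Foxa1.

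The intervals show which sizes of change these libraries leave room for. The 95% interval lay inside a 2-fold change for 6 of the 8 genes (Hnf4a, Foxa2, Foxa3, Cebpa, Cebpb and Nr5a2), as it did for 53.6% of all genes tested. For Hnf4a, Foxa3 and Cebpa it lay between 0.757-fold and 1.28-fold. The upper bounds of Foxa2 (1.94-fold) and Nr5a2 (1.87-fold) came close to 2-fold. For Foxa1 and Prox1 a 2-fold difference lay inside the interval, from 0.941 to 8.67 for Foxa1 and from 0.358 to 1.82 for Prox1. The count of 6 was 4 to 6 with any library left out.

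**Figure D4:**
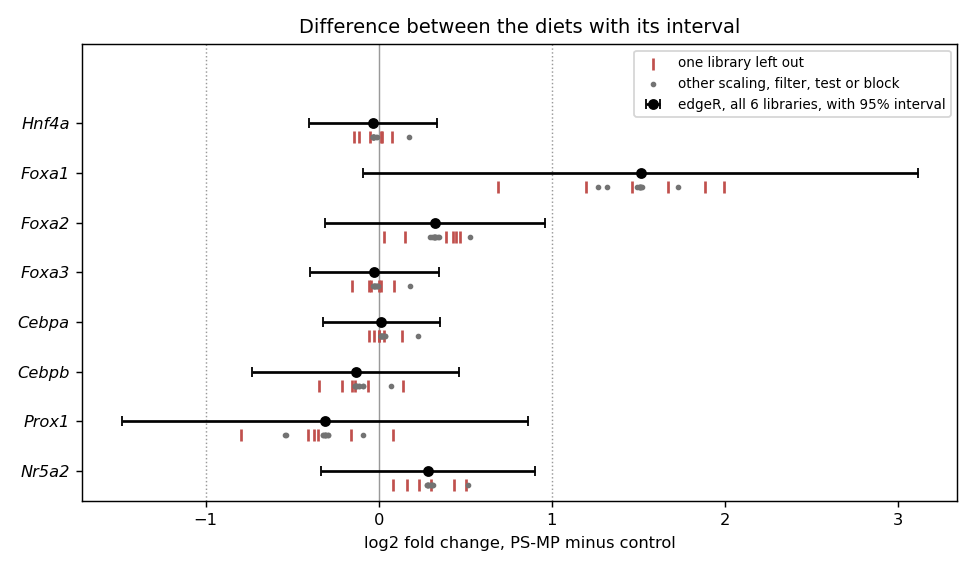
Log2 fold change (PS-MP minus control) of each gene with its 95% interval from edgeR (black), the values with one library left out (red ticks) and those under other settings (grey dots). Dotted lines mark a 2-fold change. The intervals of 6 genes stay between them, while those of Foxa1 (-0.09 to 3.12) and Prox1 (-1.48 to 0.87) cross one.

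Of 30 other liver transcription factor genes on a list, 29 were tested and 0 were called with edgeR. An unadjusted p under 0.05 was reached by 1 above zero and 1 below it, where 5.38% of all genes tested reached it. Of the 29, 17 lay above zero (median log2 fold change 0.07), where 52.8% of all genes tested did. Creb3l3, a membrane-bound factor of lipid metabolism, had 9.07, 8.82 and 9.90 CPM in PS-MP replicates 1, 2 and 3, against 289, 12.4 and 293 CPM in control replicates 1, 2 and 3, where control replicate 2 lay near the PS-MP libraries (edgeR adjusted p = 0.767). The libraries of Gata6 did not overlap either, with 0.692, 5.39 and 5.93 CPM in PS-MP replicates 1, 2 and 3, against 7.16, 6.08 and 6.01 CPM in control replicates 1, 2 and 3 (log2 fold change -0.68, SE 0.68). Of the 29 genes, the diets did not overlap for 1 that was higher and 2 that were lower in PS-MP, where they did not overlap for 11.2% of all genes tested. Nr0b2, the gene of the receptor SHP that represses NR5A2 and HNF4A activity, had 9.08, 8.66 and 20.8 CPM in PS-MP, against 17.9, 26.4 and 7.70 CPM in control, which overlap.

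Known targets of the factors were also uncalled as single genes. Over the target lists of HNF4A, the FOXA factors, CEBPA and NR5A2 and the acute phase genes bound by CEBPB, 52 of 53 distinct genes were tested. None was called by edgeR, where 0.0113% of all genes tested were. An unadjusted p under 0.05 was reached by 2, both above zero, where 5.38% of all genes tested reached it. Of the 52, 28 lay above zero and 24 below, where 52.8% of all genes tested lay above zero. The median log2 fold change was -0.02 for 18 HNF4A targets, 0.01 for 10 FOXA targets, 0.18 for 11 CEBPA targets, -0.08 for 10 NR5A2 targets and 0.08 for 17 acute phase genes. The lists share genes such as Alb, Tat and Cps1.

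The target with the smallest p was Plk3. This stress kinase gene, on the NR5A2 list, had 31.5, 34.4 and 74.2 CPM in PS-MP replicates 1, 2 and 3, against 17.1, 19.3 and 18.9 CPM in control replicates 1, 2 and 3 (log2 fold change 1.34, SE 0.34, edgeR adjusted p = 0.767). All PS-MP libraries were above all control libraries. Apoa1, the main protein of high-density lipoprotein and on the HNF4A and NR5A2 lists, had 2797, 2556 and 6429.7 CPM in PS-MP, against 1165, 1179.6 and 3651 CPM in control. In each diet replicate 3 was the highest, and the ranges overlapped. Mttp, which loads lipid onto apolipoprotein B, had a log2 fold change of -0.42 (SE 0.21). Tat, a tyrosine-degrading enzyme that FOXA and CEBPA proteins activate, had 0.48 (SE 0.22), and the urea cycle gene Cps1 0.30 (SE 0.21). Of the acute phase genes, Crp had -0.24 (SE 0.14) and Lcn2 0.96 (SE 0.60), and the adjusted p of these 5 genes was at least 0.923.

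Some of the 8 factors are also made by other cells of a liver sample, so markers of those cells were read beside them. Foxa1 and Foxa2 are expressed in bile duct cells. The 10 cholangiocyte markers summed to 15.6, 12.2 and 22.4 CPM in PS-MP replicates 1, 2 and 3, against 12.4, 27.6 and 16.5 CPM in control replicates 1, 2 and 3, and none was at 0 in all libraries. Most of this sum was Spp1 and Sox9. The other 8 markers summed to 3.36, 3.22 and 3.50 CPM in PS-MP, against 1.14, 3.61 and 1.12 CPM in control. Control replicate 2, the lowest in Foxa1, was the highest in both sums, while PS-MP replicate 2, the highest in Foxa1, was the lowest in the whole sum and above control replicates 1 and 3 in the other 8 markers. The part of bile duct cells in the Foxa1 level was not tested. Of the 7 tested markers 4 were above zero (Krt7 at 1.10, SE 0.48, and Muc1 at 1.004, SE 0.48, had the smallest p) and 0 were called.

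PROX1 marks lymphatic endothelium. The 8 lymphatic markers summed to 64.1, 78.0 and 74.1 CPM in PS-MP, against 91.7, 68.9 and 79.5 CPM in control, and 6 of the 8 lay above zero. Reln, which stellate cells also make, was the most abundant of them. The other 7 summed to 24.9, 23.4 and 29.3 CPM in PS-MP, against 23.9, 22.5 and 20.4 CPM in control. PS-MP replicate 3, low in Prox1, was the highest library in this sum, and the part of lymphatic cells in the Prox1 level was not tested. For Mmrn1 the PS-MP libraries all lay above the control ones (0.611 ± 0.127 CPM in PS-MP and 0.185 ± 0.143 CPM in control, SD, n = 3 each, edgeR adjusted p = 0.849). Reln had a log2 fold change of -0.32 (SE 0.19).

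CEBPA and CEBPB also act in myeloid cells. The 10 macrophage markers summed to 216, 195 and 185 CPM in PS-MP and 146, 142 and 160.0 CPM in control, without overlap, and 9 of 10 lay above zero (Marco at 2.25, SE 0.52, and Adgre1 at 0.70, SE 0.26, had the smallest p; 0 called). The 10 neutrophil markers summed to 2.87 to 7.70 CPM in PS-MP and 1.32 to 1.86 CPM in control, with 1 at 0 in all libraries. Of these 5 were tested and 0 called (S100a9 at 2.04, SE 0.52, and Csf3r at 1.10, SE 0.33, edgeR adjusted p at least 0.767). The highest sum was PS-MP replicate 2, where S100a9 had 212 counts, against 51 and 99 in PS-MP replicates 1 and 3. Adipocytes express CEBPA as well, and their 10 markers summed to 40.7 to 75.5 CPM in PS-MP and 55.1 to 161 CPM in control. Cidec (log2 fold change -1.68, SE 0.64) and Cidea (-2.21, SE 0.89) summed to 7.48, 22.1 and 40.1 CPM in PS-MP, against 139.5, 27.1 and 106 CPM in control. The other 8 summed to 33.2, 53.4 and 27.4 CPM in PS-MP, against 21.3, 27.95 and 33.2 CPM in control, and Lpl, Cfd and Adrb3 were above zero. Adipoq, Plin1 and Lep had 20, 41 and 10 counts in PS-MP replicate 3 and 0 in the other libraries, except for 2 counts of Adipoq in control replicate 3. Retn was at 0 in every PS-MP library and had 18, 11 and 35 counts in control replicates 1, 2 and 3. That is 0.253 ± 0.0752 CPM in control (SD, n = 3, edgeR adjusted p = 0.767), and Retn passed the low-count filter only through these libraries. Of the 10 adipocyte markers 7 were tested and 0 called. The intervals of Cebpa and Cebpb spanned zero while the macrophage and neutrophil sums did not overlap, and the part of other cells in the levels of both genes was not tested. Stellate markers summed to 271 to 389 CPM in PS-MP and 326 to 360.4 CPM in control (Lrat at 0.48, SE 0.35). Of 12 exocrine pancreas markers 7 were at 0 in all libraries, and the sum was 6.23 to 10.7 CPM in PS-MP and 10.04 to 13.3 CPM in control (Cela1 at -0.49, SE 0.26, and Cela2a at -0.10, SE 1.04).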

How the data were processed

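RNA was measured in liver. Per the labels' protocols, RNA came from a column kit and libraries were directional, made after poly(A) selection. GRCm39 and bcl2fastq stand in the submitters' processing notes. Aligner, counter, annotation and strand setting are not given there. The deposited files hold unnormalised read counts per gene symbol, as their whole numbers show. Each lists 56674 rows under 55802 symbols, and rows of the 67 repeated symbols were added up.

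Counts were tested with edgeR 4.0.16 in R 4.3.3 (filterByExpr, TMM, quasi-likelihood F test, diet as the one term, threshold 0.05). Intervals use each SE and the moderated degrees of freedom (6.63). CPM values are TMM-scaled, and log2 CPM used a prior count of 2. Alternatives used DESeq2 1.42.0, limma 3.58.1 and other scalings and filters. The 8 genes and all lists were chosen with earlier results of these data known. All 8 genes are named, with the 2 genes of smallest p of each list and the 2 most alike genes of each member, except 1 listed gene that is not reported here. Gata6 and further marker genes, and the split of 3 marker sums, were chosen after their values were seen, and Nr0b2 by role. Sequences are from RefSeq (GRCm38.p6), transcript lengths from GENCODE M21. Shares and ratios were compared with exact permutation tests over the libraries. After Benjamini-Hochberg adjustment over the 7 such tests the smallest p was 0.35.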

Additional observations from a re-analysis of the deposited data

How the results depend on the processing

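None of the 8 genes was called under any alternative run (other scalings, filters, tests, dispersions, row removals, the block, a threshold of 0.1, or a library left out). Over all genes, 2 were called by edgeR, 187 by DESeq2 (62 higher and 125 lower), 1 by limma-voom, and 0 to 4 with a library left out. Scaling by library size alone moved the median of all genes by 0.21, and with it the median of the members to 0.20, Hnf4a to 0.18, Foxa3 to 0.18 and Cebpb to 0.0708; unadjusted p for Foxa1 was then under 0.05, as with DESeq2 and without PS-MP replicate 3 or control replicate 3. With a library left out, values near zero changed sign: Hnf4a ran from -0.143 to 0.0759, Foxa3 from -0.156 to 0.0884, Cebpa from -0.0531 to 0.138, Cebpb from -0.345 to 0.142 and Prox1 from -0.794 to 0.0850; apart from the libraries left out and the scaling, the cause was not tested. The filter of at least 1 CPM in 3 libraries removed Foxa1. Of 87 values of members under other settings 84 kept their direction, and of 48 with a library left out 38 did. With the replicate number as a block, 0 genes were called. Deviations of same-numbered libraries correlated across genes at 0.11, 0.14 and -0.13. PS-MP replicates 1 and 2 were each most like the control library of the same number, while PS-MP replicate 3 was not. Correlations this small cannot decide whether the numbers pair the samples. Depth bears most on Foxa1, with 16 to 251 counts per library.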
